A study of Homo sapiens with 6 samples.

Results

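Solute carriers are membrane proteins that move sugars, amino acids, organic acids, metals, vitamins and nucleosides across the plasma membrane and the membranes of organelles, and they are grouped into numbered families by sequence. In the liver they take up bile acids and drugs from the blood, export glucose, supply amino acids and pass metabolites between the cytosol and the mitochondrial matrix. The members described here were every gene that the authors' region lists named as a numbered SLC family with the letter A and a digit, or as SLCO with a digit, so subfamilies with other letters (such as SLC35B) were not included. The lists named 16428 genes in all, and 234 of them, in 48 families, met this rule.

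The data were RNA polymerase II ChIP-seq regions from HepG2, a human hepatoma line that keeps many hepatocyte functions. The CRISPR control cells (WT) carried a nontargeting guide, and the SHP-1 KO cells (KO) were clones in which guides against the phosphatase domain exons had disrupted PTPN6, the gene of the tyrosine phosphatase SHP-1. For each genotype there was 1 library with an antibody to RPB1, the largest subunit of the polymerase, and 1 with an antibody to RPB1 phosphorylated at serine 2 of its C-terminal repeat (pSer2), and the 2 input libraries were not analysed here. No library had a replicate, so no difference between WT and KO below has a replicate check or a p-value, and a difference between clones cannot be told apart from one between genotypes.

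RPB1 gathers at promoters when transcription starts, and pSer2 accumulates on polymerase that is elongating through the gene body. A gene was therefore read by 2 features. Promoter RPB1 meant at least 1 RPB1 region that the authors placed within 1 kb of the start of that gene, with its strongest fold enrichment over the background as the level. Body pSer2 meant at least 1 pSer2 region in an exon, intron or UTR that the authors assigned to that gene, with the summed length of those regions in bp as the level. Because the authors assigned each region to the nearest start, a region inside one gene can carry the name of a neighbor. Among exon and intron regions of the members whose transcript could be looked up, the transcript belonged to the named gene for 251 of 319 in WT RPB1, 247 of 301 in KO RPB1, 786 of 1006 in WT pSer2 and 631 of 782 in KO pSer2. For each member named below the same readout was therefore also taken by position, from the span and the transcript starts of the gene in GENCODE release 44, which holds 233 of the members.

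The lists held 46045 (WT) and 41605 (KO) RPB1 regions, and 102674 (WT) and 81012 (KO) pSer2 regions. Members took 914 and 839 of the RPB1 regions and 1808 and 1424 of the pSer2 regions. Of 8 hepatocyte genes (ALB, APOA1, APOB, TTR, SERPINA1, AFP, TF and FGB), 7 had promoter RPB1 in each genotype, with fold enrichments of 7.25 to 93.8 in WT and 4.66 to 64.8 in KO. Of 8 genes of blood, nerve, muscle, endothelium and fibroblasts, 2 had promoter RPB1 in WT, at up to 6.35, and 1 in KO, at 4.32, the higher value in WT and the value in KO being those of PECAM1, an endothelial gene. Body pSer2 was present for only 3 of the 8 hepatocyte genes in WT and 4 in KO. ALB, SERPINA1 and AFP had none in either genotype, TTR and TF had it in KO alone, and FGB in WT alone. PECAM1 and GFAP, a glial gene, had body pSer2 in both genotypes. The lengths at PECAM1, 13452 bp in WT and 6552 bp in KO, exceeded those of every hepatocyte gene. PTPRC, CD3E, SYT1, MYH7 and COL1A1 had neither feature in either genotype. The targeted gene, PTPN6, had promoter RPB1 of 23.95 in WT and 17.2 in KO and no body pSer2 in either list, which does not check a deletion within its coding exons. At PCK1, the gluconeogenic gene that the study's title names, promoter RPB1 was 6.96 in WT with no region in KO.

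The promoters of 5 members on which the results turn are shown here from the RefSeq table (GRCh38.p14, the build family of the authors' hg38 coordinates), as the stretch just before the transcript start, 5′ to 3′ on the strand of the gene, and ending where any annotated exon begins. SLC2A2 (chr3:171026744-171026840, minus strand) and SLC19A3 (chr2:227718029-227718148, minus strand) lay under an RPB1 region in WT and under none in KO. SLC6A14 (chrX:116436486-116436605, plus strand) and SLC22A15 (chr1:115976393-115976512, plus strand) had little or no body pSer2 in WT and 15 or more body regions in KO. SLCO2B1 (chr11:75159712-75159779, plus strand) lost body pSer2 in KO. Capitals mark ATAAA at 40 to 20 bases before the start in SLC2A2 and SLC6A14, where the TATA box of a promoter sits, and TGGACTTTG, the HNF4 motif CAAAGTCCA read on the other strand, in SLCO2B1. The window of SLCO2B1 also held ATAAA at that place, beyond the end of the stretch shown.

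SLC2A2: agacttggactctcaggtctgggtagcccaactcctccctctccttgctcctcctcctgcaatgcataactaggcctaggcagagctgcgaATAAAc

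SLC19A3: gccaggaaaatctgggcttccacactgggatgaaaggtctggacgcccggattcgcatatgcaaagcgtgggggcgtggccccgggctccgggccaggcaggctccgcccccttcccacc

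SLC6A14: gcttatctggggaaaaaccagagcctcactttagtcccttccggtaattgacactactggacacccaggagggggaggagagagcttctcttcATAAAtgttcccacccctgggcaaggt

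SLC22A15: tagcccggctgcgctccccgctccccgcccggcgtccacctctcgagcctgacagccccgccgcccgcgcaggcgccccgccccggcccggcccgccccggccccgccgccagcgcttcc

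SLCO2B1: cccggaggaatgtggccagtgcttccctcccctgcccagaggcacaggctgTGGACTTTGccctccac

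The ATAAA core stood at that place, on the strand of the gene, in 13 of 255 promoter windows of members (5.10%) and in 4.65% of all 35116 windows in the table. Of 4 motifs searched on both strands of the whole 300-base windows (250 bases before the start and 50 after it), TTCNNNGAA, the STAT site, was in 5.88% of members' windows and 7.66% of all. TGACGTCA, the CREB site, was in 2.35% and 1.85%, CAAAGTCCA in 0.392% and 0.384%, and the longer palindromic HNF1 site in none of the members' windows and 0.00570% of all. The shares in members were near those of all windows, and 180 of the 234 members had a window. RPB1 regions of WT lay on a window of 147 of these 180 members (81.7%, against 83.2% of all genes with a window). Regions of KO lay on a window of 138 (76.7% against 80.4%). For 11 members this held in WT alone (SLC2A2, SLC2A14, SLC7A10, SLC16A8, SLC16A11, SLC17A2, SLC19A3, SLC25A47, SLC30A3, SLC38A5 and SLC49A3) and for 2 in KO alone (SLC17A7 and SLC37A1). No share over all genes was taken for these 2 counts. Outside the window, SLC2A14, SLC16A8, SLC16A11, SLC17A2, SLC17A7, SLC37A1, SLC38A5 and SLC49A3 had an RPB1 region within 1 kb of a start in the other genotype too.

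Most solute carrier genes in the lists had polymerase at their promoter, and about as many as other genes had pSer2 in their body. Promoter RPB1 was present for 191 of 234 members in WT (81.6%, against 74.4% of all 16428 genes) and 180 in KO (76.9% against 72.0%). Body pSer2 was present for 134 in WT (57.3% against 57.3%) and 128 in KO (54.7% against 49.5%). Both features were present for 115 in WT (49.1% against 44.1%) and 107 in KO (45.7% against 38.4%), and for 92 of these in both genotypes. Among protein-coding genes of the lists alone, the shares with both were 49.6% of 232 members and 50.3% of 12965 genes in WT, and 46.1% and 44.1% in KO, so the members lay close to other coding genes.

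By position the members with both features numbered 153 of 233 in WT (65.7%, against 59.9% of the 15431 genes looked up) and 137 in KO (58.8% against 52.9%). Over all protein-coding genes of the annotation, named in the lists or not, 158 of 349 solute carrier genes had both in WT (45.3%, against 46.7% of 19960) and 142 in KO (40.7% against 41.4%). The annotation holds 353 names that meet the rule, and 120 of them were named in no list. These included the hepatocyte uptake transporters SLCO1B1 and SLCO1B3 and the amino acid transporters SLC38A4, SLC7A8 and SLC1A1. At 21 of the 120 a region was found by position under the name of a neighbor. SLC66A1, a lysosomal cationic amino acid exporter, was the strongest, with promoter RPB1 of 95.8 in WT and 65.5 in KO, and SLC12A2, the sodium potassium chloride cotransporter, had 36.5 and 26.9.

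Genes with stronger promoters more often carried body pSer2. In WT, body pSer2 was found for 32 of 65 members in the lowest of 3 equal groups of promoter RPB1 level, set over all genes, 29 of 53 in the middle group and 54 of 73 in the highest (49.2%, 54.7% and 74.0%, against 44.3%, 62.3% and 70.9% of all genes). In KO the shares were 39.7%, 61.3% and 80.0% of members, against 40.9%, 54.9% and 64.3%. Members with both features had a median promoter RPB1 of 32.0 in WT, against 18.9 for those with promoter RPB1 alone, and of 23.5 against 12.1 in KO. In WT the members with both were also longer, with a median length of 37400 bp against 24655 bp, while in KO the medians were 33433 and 33086 bp.

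The families differed in how many of their listed members had these features. A gene was a member only if some region carried its name, so genes without such a region are left out of these totals. SLC25, the mitochondrial carriers, was the largest, with 41 members, of which 35 had promoter RPB1 in WT and 34 in KO, and 17 and 19 had both features. Over all genes promoter RPB1 was present for 74.4% in WT and 72.0% in KO, or 84.3% and 81.5% by position. All 11 members of SLC39, the zinc importers, had promoter RPB1 in WT and 10 in KO. For SLC7, the cationic and glycoprotein-associated amino acid transporters, it was all 8 in WT and 7 in KO. For SLC30, the zinc exporters, it was all 7 in WT and 6 in KO. SLC22, the organic ion transporters, had 8 of 14 in WT and 7 in KO, and SLC2, the facilitated glucose transporters, 9 of 12 in each. By position promoter RPB1 was present for 40 SLC25 members in WT and 39 in KO, 9 and 8 of SLC22, and 10 of SLC2 in each. The annotation holds 14 SLC39, 13 SLC7, 10 SLC30, 22 SLC22, 14 SLC2 and 48 SLC25 genes.

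**Figure D1:**
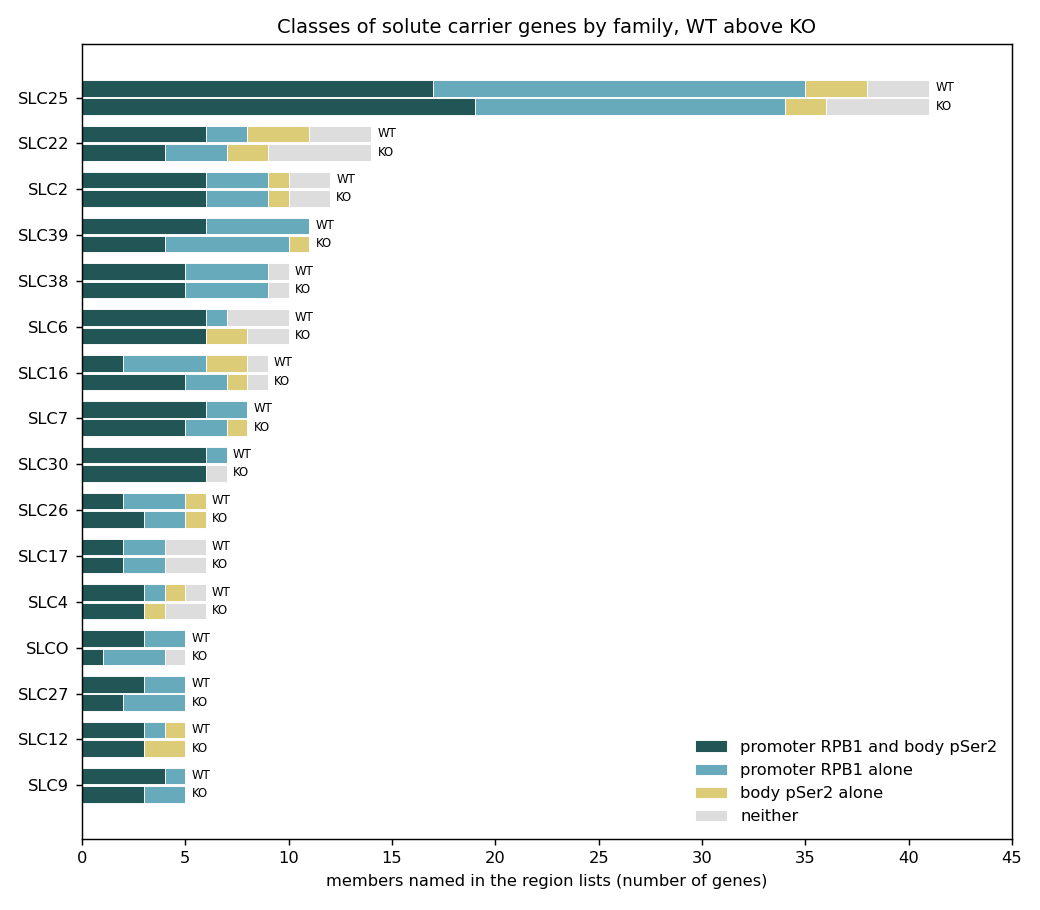
Number of solute carrier genes in each class by family, for the 16 families with at least 5 members in the lists, with WT as the upper bar and KO as the lower bar of each pair. SLC25 has 41 members, of which 17 in WT and 19 in KO hold promoter RPB1 with body pSer2, and SLCO falls from 3 of 5 members to 1. The 5 SLCO members include the antisense RNA SLCO4A1-AS1.

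Between WT and KO the count with both features fell in SLC22 (6 to 4), SLC39 (6 to 4), SLCO, the organic anion transporting polypeptides (3 to 1), SLC7 (6 to 5), SLC9, the sodium proton exchangers (4 to 3), and SLC27, the fatty acid transport proteins (3 to 2). It rose in SLC16, the monocarboxylate transporters (2 to 5), SLC25 (17 to 19) and SLC26, anion exchangers (2 to 3), and was equal in SLC2, SLC4, SLC6, SLC12, SLC17, SLC30 and SLC38. By position SLC16 went from 5 to 6 of 9, SLC25 from 29 to 27 of 41 and SLC26 stayed at 4 of 5, so the rise of SLC25 turned into a fall. SLCO went from 4 to 1 by position and SLC22 from 6 to 5. The 4 SLCO genes in WT by position included the antisense RNA SLCO4A1-AS1, which is not a transporter gene and did not hold both features in KO. Over all members, 177 of 234 (75.6%) were in the same class in WT and KO, as were 75.7% of all genes.

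**Figure D2:**
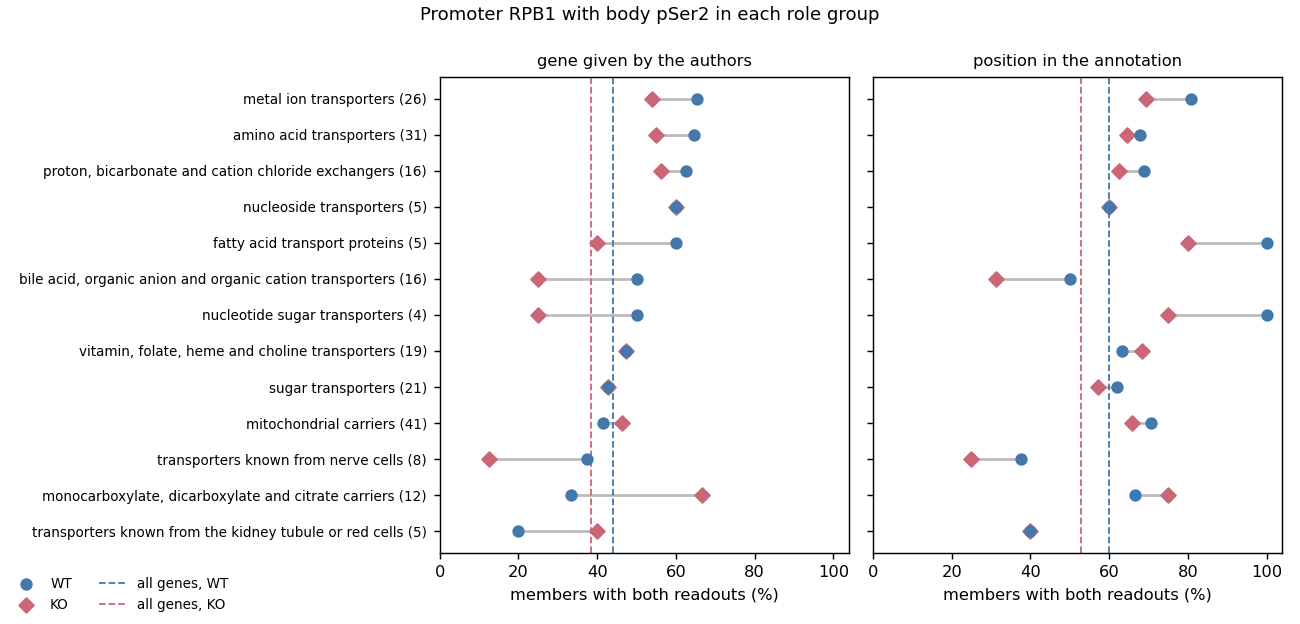
Share of members with promoter RPB1 and body pSer2 in each role group, in WT (circles) and KO (diamonds), with regions counted under the gene given by the authors (left) and by position (right); dashed lines give all genes and group sizes are in parentheses. Bile acid and organic ion transporters lie lower in KO on both panels, as do all genes. The monocarboxylate, dicarboxylate and citrate carriers change from 4 to 8 of 12 on the left panel but from 8 to 9 on the right.

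Transporters of bile acids and organic ions, which handle bile salts and drugs in hepatocytes, held both features less often in KO than in WT, as did all genes. Of 16 members, 8 had both features in WT and 4 in KO, where all genes had 44.1% and 38.4%. By position 8 and 5 members had both, against 59.9% and 52.9% of all genes. The same shares of all genes apply to the counts with both features in the role groups below. Promoter RPB1 was lower in KO for 9 of the 10 members measured in both, as it was for 84.8% of all genes, and body pSer2 was shorter for 6 of 7, against 68.9% of all genes. By position body pSer2 was shorter for 6 and longer for 2, near the 71.3% shorter over all genes. The strongest promoters were those of SLC10A3, a member of the bile acid transporter family (61.1 in WT, 30.1 in KO), SLCO4A1 (46.3 and 18.6) and SLC47A1, the MATE1 drug exporter (44.5 and 23.6). Body pSer2 of SLC47A1 was 4832 bp in WT and 2152 bp in KO, and 6315 and 1765 bp by position.

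SLCO4A1, a thyroid hormone and organic anion carrier, fell from 6715 bp of body pSer2 in WT to 1642 bp in KO. SLCO2B1 (chromosome 11), a sulfated steroid and statin carrier of the liver, had promoter RPB1 of 8.04 in WT and 4.48 in KO and body pSer2 of 1436 bp in WT alone, of which 502 bp lay in the body by position. SLCO4C1 went from 13.4 to 4.86 at the promoter, with 333 bp of body pSer2 in WT and none in KO. SLC22A9, a liver organic anion transporter, had promoter RPB1 in WT alone (4.41) and body pSer2 of 720 bp in WT and 200 bp in KO.

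SLC10A1, the sodium taurocholate cotransporter that takes bile acids into hepatocytes (chromosome 14, 69775416 to 69797241), had no promoter RPB1 in either list. Its body pSer2 fell from 3021 bp in WT to 297 bp in KO under the authors' gene, relative to the median of all genes the lowest log2 ratio of the members, at −3.03. By position the coverage was 11854 and 7801 bp, or 56.9% and 37.5% of the body, a relative log2 ratio of −0.32, so the difference was much smaller by position. SLC22A3, an organic cation transporter with body pSer2 in WT alone by name (668 bp), had more by position in KO (4927 bp) than in WT (3347 bp).

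Among sugar transporters SLC2A2 left the genes with both features and SLC2A3 entered them. Of 21 members 9 had both features in WT and 9 in KO by name, and 13 and 12 by position. Promoter RPB1 was lower in KO for 13 of 16, near the 84.8% of all genes. SLC2A2, which encodes GLUT2, the main glucose transporter of hepatocytes (chromosome 3, 170996347 to 171026743), had promoter RPB1 of 7.80 in WT, in a region from 171026485 to 171027236 that overlaps the start, and no promoter region in KO. By name its WT body held 7 pSer2 regions with 2152 bp in sum, and the KO list held none. The 200 bp region among them from 170994772 to 170994971 lay past the gene's annotated end. By position the lengths were 2421 bp in WT and 0 in KO. The 7 WT regions by name were weak, with fold enrichments of 2.26 to 3.41. Their mean of 2.89 lay below the lower quartile of such means over members in WT, 3.51. The 1 pSer2 region that KO listed for SLC2A2 was 239 bp long and lay past the gene's end.

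SLC2A3, which encodes GLUT3, the glucose transporter of neurons and of many tumor cells (chromosome 12), showed the opposite pattern. It had promoter RPB1 of 7.72 in KO and none in WT, and it was the only member whose promoter RPB1 in KO alone also held by position. Its body pSer2 in KO was 1 region of 206 bp in the 3′ UTR, of which 24 bp lay within the annotated span, and regions of 599 and 321 bp followed downstream.

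SLC2A1, which encodes GLUT1, had 7508 bp of body pSer2 in WT and 23942 bp in KO by name, but 30894 and 31271 bp by position, which is 94.9% and 96.1% of its body. Its promoter RPB1 by position was 50.9 in WT and 49.0 in KO. SLC2A9, the urate and fructose transporter, carried the most body pSer2 of the members in WT by position, 71293 bp in WT and 54375 bp in KO, or 25.2% and 19.2% of a long gene, with promoter RPB1 of 8.96 in each. SLC2A8 and SLC50A1, an intracellular hexose transporter and the SWEET-type sugar transporter, had strong promoters (56.0 and 55.5 in WT, 30.9 and 35.2 in KO), and so did SLC2A6 (54.7 and 33.3). Body pSer2 of SLC2A6 was 1465 bp in WT and 4354 bp in KO by name, but 3617 and 2046 bp by position, so the direction turned. SLC37A4, the glucose 6-phosphate translocase of gluconeogenesis, was 21.6 in WT and 15.2 in KO at the promoter, with 4499 and 3197 bp of body pSer2 by position.

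**Figure D3:**
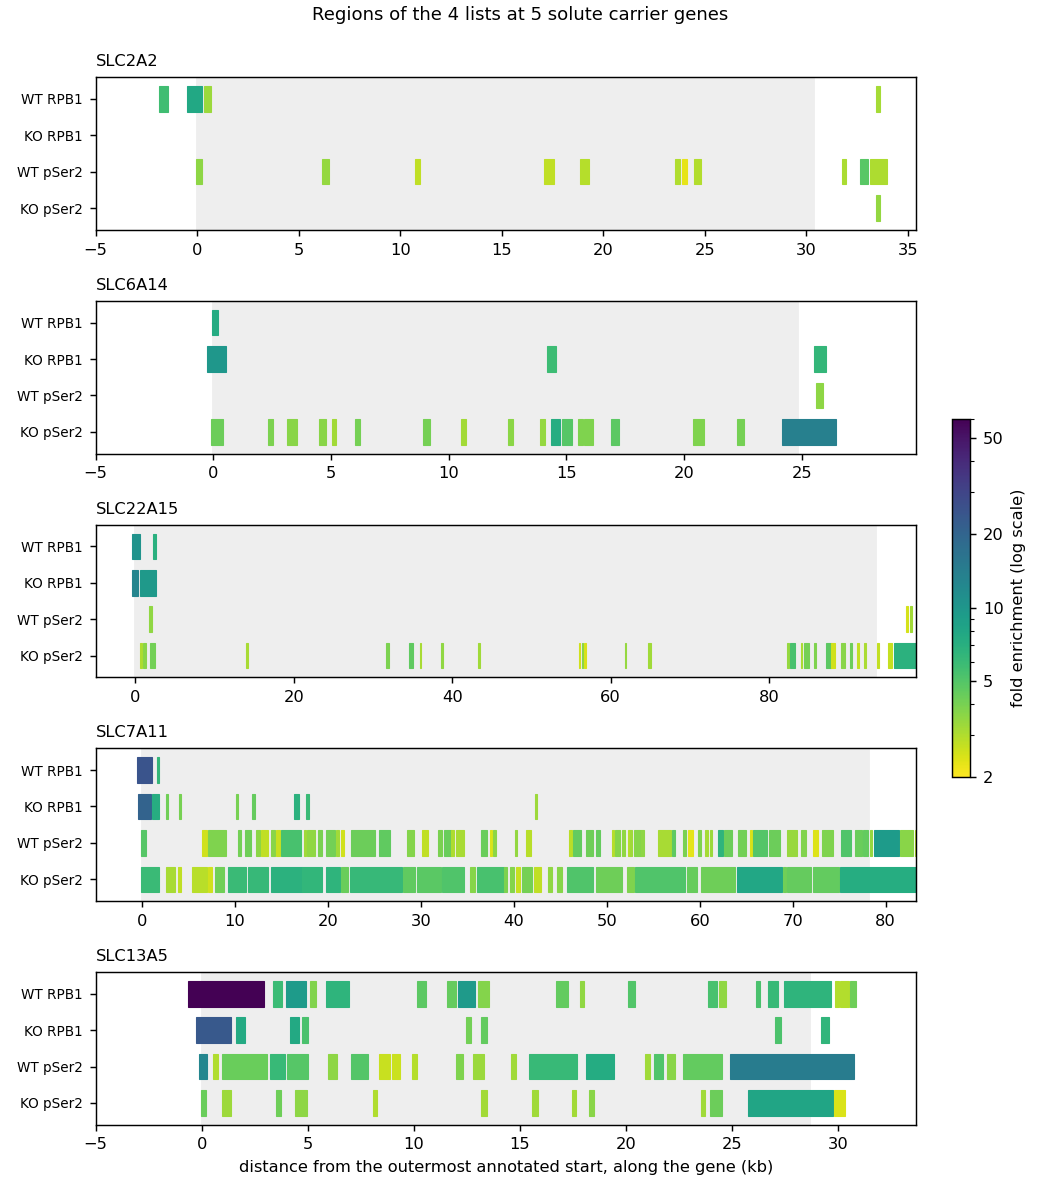
Regions of the 4 lists at SLC2A2, SLC6A14, SLC22A15, SLC7A11 and SLC13A5, drawn to scale along each gene from its outermost annotated start (0 kb) with 5 kb on either side; grey marks the gene and color the fold enrichment of each region on a log scale. SLC2A2 has no KO region within the gene, SLC6A14 and SLC22A15 have 18 and 25 pSer2 regions in KO against 0 and 1 in WT, and pSer2 covers more of SLC7A11 and less of SLC13A5 in KO.

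Amino acid transporters were the role group in which body pSer2 was most often longer in KO. Of 31 members, 20 had both features in WT and 17 in KO. Promoter RPB1 was lower in KO for 24 of 27, near the 84.8% of all genes. Body pSer2 was longer in KO for 10 of the 18 members measured in both and shorter for 8, against 31.0% longer over all genes and 25 of 112 over all members. By position it was longer for 12, shorter for 7 and equal for SLC38A2, against 26.9% longer over all genes and 36 of 142 over all members. Summed over the group by position, pSer2 regions covered 268039 bp in WT and 300403 bp in KO, while over all members they covered 1110167 and 946100 bp. The higher sum in KO rested on SLC7A11 (39039 and 66386 bp) and SLC7A1 (9837 and 22367 bp). The sum over the rest of the group was lower in KO.

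SLC7A11, which encodes xCT, the cystine importer that feeds glutathione synthesis (chromosome 4, 138164097 to 138242349), had the largest gain of the group in bp. Its body pSer2 was 17750 bp in WT and 31869 bp in KO by name, and 39039 and 66386 bp by position, or 50.5% and 85.9% of the body. Its promoter RPB1 was 24.9 in WT and 20.7 in KO, close to the median change of all genes. SLC7A1, the cationic amino acid transporter CAT1, went from 11834 to 24629 bp by name and from 9837 to 22367 bp by position, a larger ratio than that of SLC7A11 on both readouts.

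SLC6A14, a broad neutral and cationic amino acid transporter (chromosome X, 116436606 to 116461458), had no body pSer2 region in WT and 15 in KO, with a summed length of 4474 bp. By position KO regions covered 5471 bp, 22.9% of the body. It was 1 of 25 members with higher promoter RPB1 in KO (7.51 in WT, 9.93 in KO), out of 174 measured in both, and over all genes 15.2% were higher. Its promoter region lengthened from 116436545 to 116436810 in WT to 116436347 to 116437155 in KO.

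SLC7A5, SLC3A2, SLC1A5 and SLC38A2 had promoter RPB1 and, by position, body pSer2 in both genotypes. SLC7A5 (LAT1) had promoter RPB1 of 105.9 in WT and 82.4 in KO. Its body pSer2 was 27730 and 31397 bp by position but 19557 and 18189 bp by name, so the direction turned. Its partner SLC3A2 had promoter RPB1 of 54.1 and 55.4 by position, with 8209 and 10219 bp of body pSer2. By name both fell in KO, to 42.7 from 54.1 at the promoter and to 1095 from 1432 bp in the body. SLC1A5 (ASCT2) had 86.4 and 69.4 at the promoter, with 10972 and 11490 bp by position. SLC38A2 (SNAT2), the strongest promoter of the group in WT (106.3, and 77.1 in KO), was covered over 100% of its body in both genotypes although no body region carried its name.

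Members that were shorter in KO by position included SLC7A2, SLC38A3 and SLC43A2. SLC7A2, the liver arginine transporter CAT2, went from 36177 to 20207 bp by position, and SLC38A3, the hepatocyte glutamine transporter SNAT3, from 12237 to 6983 bp, although by name SLC38A3 went from 3943 to 6184 bp. SLC6A13, the GABA transporter GAT2 of the liver, fell from 1956 to 245 bp by name, with no body pSer2 by position in either genotype. SLC43A2 (LAT4) had 2398 bp of body pSer2 in WT, read the same by name and by position, and none in KO, while its promoter RPB1 was 16.1 and 14.3. SLC7A10 (4.51) and SLC1A2 (3.71) had promoter RPB1 in WT alone.

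**Figure D4:**
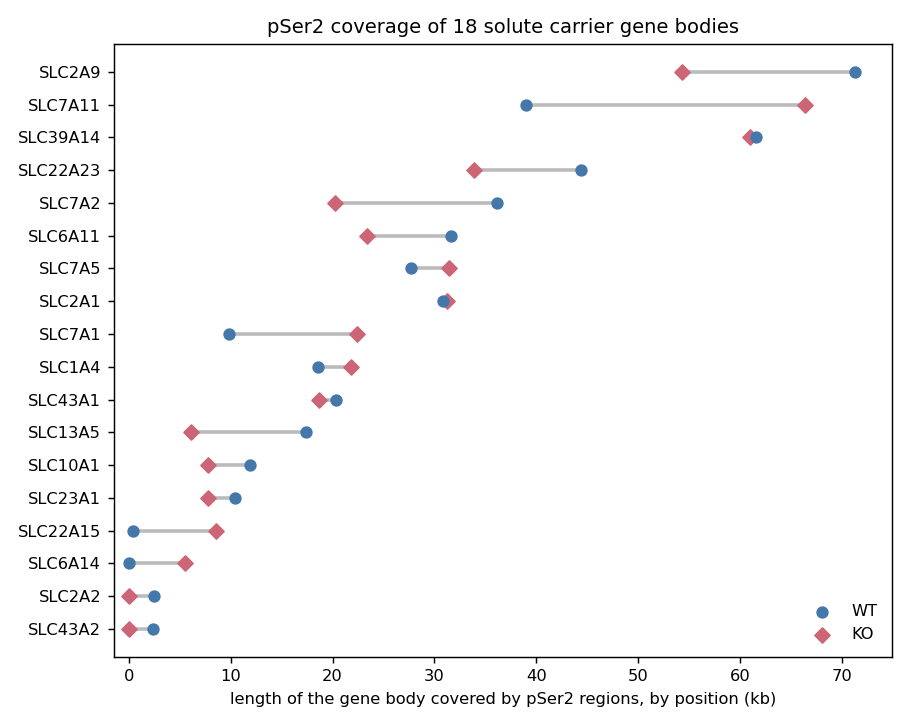
Length of the gene body covered by pSer2 regions, by position, in WT (circles) and KO (diamonds) for 18 solute carrier genes that the text describes. KO exceeds WT most for SLC7A11 (66386 against 39039 bp), SLC7A1, SLC22A15 and SLC6A14, and falls short of it most for SLC2A9, SLC7A2 and SLC13A5.

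Carriers of monocarboxylates, dicarboxylates and citrate held the strongest promoter of all members in WT. SLC16A3, which encodes the lactate exporter MCT4, reached 130.8 in WT and 114.7 in KO, followed in this group by SLC16A10, an aromatic amino acid transporter (88.7 and 74.3), and SLC13A5 (61.0 and 23.6). SLC13A5 is the sodium-coupled citrate transporter NaCT of hepatocytes (chromosome 17, 6684719 to 6713377). Its body pSer2 was 9883 bp in WT and 6737 bp in KO by name, and 17433 and 6117 bp by position, or 63.0% and 22.1% of the body, so promoter and body were both lower in KO. The number of RPB1 regions within the gene was 17 in WT and 7 in KO.

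Of the 12 members of this group 4 had both features in WT and 8 in KO, and by position 8 and 9. The gains by name were at SLC16A1, SLC16A5, SLC16A11 and SLC26A6. SLC16A1 (MCT1) had a KO promoter region of 4.53 under its own name, but by position its promoter RPB1 was 77.2 in WT and 63.3 in KO. SLC26A6, an oxalate and bicarbonate exchanger, had 253 bp of body pSer2 in KO alone by name, but 5575 bp in WT and 347 bp in KO by position, with promoter RPB1 of 60.8 and 23.5. SLC16A11 likewise covered 1471 and 755 bp by position. SLC16A5 had no body pSer2 in WT on either readout and 393 bp by name, 1178 bp by position, in KO. SLC16A13 fell from 2088 to 256 bp by name and from 2148 to 256 bp by position, with promoter RPB1 of 48.9 and 29.5.

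Mitochondrial carriers, the SLC25 family, exchange metabolites and nucleotides across the inner mitochondrial membrane. The strongest promoters were those of SLC25A1, the citrate carrier (102.1 in WT, 83.4 in KO), SLC25A4, the ADP/ATP translocase ANT1 (85.8 and 42.7), and SLC25A15, the ornithine carrier of the urea cycle (61.8 and 50.5). Promoter RPB1 was lower in KO for 30 of 33 members, and body pSer2 shorter for 14 of 16, or by position for 21 of 25. Over all genes 84.8% were lower at the promoter, and 68.9% were shorter in the body, or 71.3% by position. SLC25A13, the aspartate glutamate carrier citrin, went against this in its body, from 5219 to 8667 bp by name and from 5078 to 7886 bp by position, while its promoter was 47.4 in WT and 24.3 in KO.

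SLC25A47, a carrier found mainly in liver, had promoter RPB1 in WT alone (6.51) by both readouts. SLC25A21, the oxodicarboxylate carrier, had it in WT alone by name (18.5), but by position there was a KO region of 16.5. SLC25A24 fell from 27.5 to 9.12 and SLC25A43 from 17.0 to 5.80, and of these 2 genes SLC25A43 had body pSer2, in WT alone (229 bp). SLC25A51, the mitochondrial NAD carrier, headed the members by name with 61092 bp of body pSer2 in WT and 38762 bp in KO, but only 1 of its 69 WT regions with a known transcript lay in a transcript of its own, and by position it had 3083 and 1497 bp.

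Among metal ion transporters 17 of 26 members had both features in WT and 14 in KO, and by position 21 and 18. All 26 had promoter RPB1 in WT and 23 in KO, against 74.4% and 72.0% of all genes. It was lower in KO for 21 of 23, and body pSer2 was shorter for 14 of 15, or by position for 17 of 19. The shares of all genes lower or shorter in KO were 84.8% at the promoter, and 68.9% by name and 71.3% by position in the body. SLC39A14 (ZIP14), the zinc and manganese importer of hepatocytes, was covered over 93.5% of its body in WT and 92.6% in KO by position, with promoter RPB1 of 91.1 and 66.8. SLC39A13 had 68.3 and 39.6, and SLC30A5 57.9 and 20.8. SLC40A1, which encodes the iron exporter ferroportin, went from 46.2 to 17.4 at the promoter and had body pSer2 in WT alone (256 bp, and 502 bp by position).

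SLC39A4, the intestinal zinc importer ZIP4, was the largest rise in promoter RPB1 that held by position, from 51.1 in WT to 118.8 in KO, the highest KO value of any member, while its body pSer2 by position was 1816 bp in WT and 1079 bp in KO. SLC39A1 had a larger ratio by name (5.80 and 16.5), but by position it was 32.1 and 24.4. Promoter RPB1 in WT alone was seen at SLC30A3, the synaptic vesicle zinc transporter (6.42), and SLC11A1, the phagosomal metal transporter (3.6), by both readouts. SLC39A9 (5.75) had it by name alone.

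The 5 fatty acid transport proteins all had promoter RPB1 in WT and KO, against 74.4% and 72.0% of all genes. It was lower in KO for all 5, as it was for 84.8% of all genes. SLC27A5, the liver bile acid CoA ligase and fatty acid transport protein, went from 42.9 to 12.2 by name, but by position its KO promoter reached 27.3, a relative log2 ratio of −0.18 in place of −1.35. SLC27A3 went from 42.1 to 11.4 on both readouts, the largest fall among the members by name. SLC27A4 was 21.0 and 17.9. SLC27A2, the very long-chain acyl-CoA synthetase of liver, was 13.9 and 10.1 with body pSer2 in WT alone, at 300 bp by name and 829 bp by position.

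Vitamin, folate, heme and choline transporters had both features for 9 of 19 members in each genotype. SLC19A2 and SLC19A3 are thiamine transporters. SLC19A2 had promoter RPB1 of 56.5 in WT and 31.9 in KO, and SLC19A3 (chromosome 2, 227683763 to 227718028) had 9.49 in WT, in a region from 227717696 to 227718341, and none in KO, with no body pSer2 in either. SLC22A4, the ergothioneine transporter, was 48.2 and 40.1. SLC46A1, the proton-coupled folate transporter, was 41.6 and 24.8, with body pSer2 of 8173 and 2176 bp by name and 8277 and 4554 bp by position. SLC19A1, the reduced folate carrier, rose from 1590 to 5387 bp by name but was 14599 and 12637 bp by position. SLC23A1, the ascorbate transporter, was higher at the promoter in KO (7.80 and 12.3) and lower in the body (12445 and 8773 bp). These promoter values came from different regions, 139385259 to 139385565 in WT and 139383072 to 139383817 in KO. The relative log2 ratio of 1.12 was 0.58 with the promoter taken as 3 kb upstream to the start.

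SLC22A15, an organic zwitterion transporter (chromosome 1, 115976513 to 116070054), had the largest rise in body pSer2 of the members relative to the median of all genes, 4.70 on the log2 scale. The WT list held 1 body region of 368 bp and the KO list 20 regions with a summed length of 7631 bp, and by position the lengths were 368 and 8592 bp, or 0.398% and 9.28% of the body. Its promoter RPB1 was 10.5 in WT and 12.7 in KO. The KO regions given this gene's name reached past its annotated end, and each had a fold enrichment of at most 5.35.

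Among exchangers of protons, bicarbonate and chloride, SLC4A7 had the strongest promoter in WT (102.4, and 49.4 in KO), and SLC12A4, a potassium chloride cotransporter, had 43.0 and 38.2. Of 16 members 10 had both features in WT and 9 in KO. SLC4A11 fell from 9943 to 1533 bp of body pSer2 by name, but none of its 8 WT regions with a known transcript lay in its own, and by position it was 1526 and 883 bp. SLC4A3 (5.01) had promoter RPB1 in WT alone.

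Nucleoside transporters SLC29A3 (40.1 and 25.5), SLC29A1 (19.8 and 20.4) and SLC29A2 (11.2 and 5.93) had promoter RPB1 in both genotypes, and 3 of the 5 members had both features in each. Of the nucleotide sugar transporters, SLC35A1, the CMP-sialic acid transporter, led with 66.5 and 37.0. Its body pSer2 was 2521 and 497 bp by name and 14848 and 12649 bp by position, so relative to all genes its log2 ratio changed from −2.02 to 0.06. SLC35A2 was 33.5 and 13.2, and SLC35A5 29.6 and 22.8.

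Of 21 transporter genes best known from neurons 8 were in the lists. Over all genes 44.1% held both features in WT and 38.4% in KO, or 59.9% and 52.9% by position. Of the 8 transporter genes, 3 held both features in WT and 1 in KO by name, and 3 and 2 by position. SLC6A11, the GABA transporter GAT3, had the strongest promoter of these, with promoter RPB1 of 53.6 in WT and 34.3 in KO and body pSer2 of 31672 and 23406 bp by position. SLC6A4, the serotonin transporter, had promoter RPB1 in WT alone (7.51), with body pSer2 of 2516 bp in WT and 1381 bp in KO by name, but 1961 bp and none by position. SLC1A7 (6.89) also had promoter RPB1 in WT alone, and SLC17A7 was 20.5 and 15.3. Of 13 genes best known from kidney tubule or red cells 5 were in the lists. SLC34A1 and SLC34A3, renal phosphate cotransporters, went from 37.7 to 15.5 and from 28.7 to 8.68 at the promoter, and SLC5A2 was 13.3 and 14.8.

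Promoter RPB1 was lower in KO for most members, as for most genes. Over the 174 members measured in both, the median log2 ratio of KO to WT was −0.47 (quartiles −0.84 and −0.18), and over all 11250 genes it was −0.46. Relative to that median, 5 members lay more than 2-fold higher in KO, against 2.44% of all genes, and 8 more than 2-fold lower, against 2.27%. The higher were SLC6A8, SLC39A1, SLC39A4, SLC23A1 and SLC2A11, and the lower SLC27A3, SLC5A11, SLC27A5, SLC34A3, SLC25A24, SLC25A43, SLC30A5 and SLCO4C1. SLC6A8, the creatine transporter, was 6.01 and 20.6 by name but 32.0 and 20.6 by position, so its direction turned. SLC5A11, a sodium myo-inositol transporter, was 14.9 and 4.07 on both readouts, and SLC2A11 16.1 and 24.7.

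**Figure D5:**
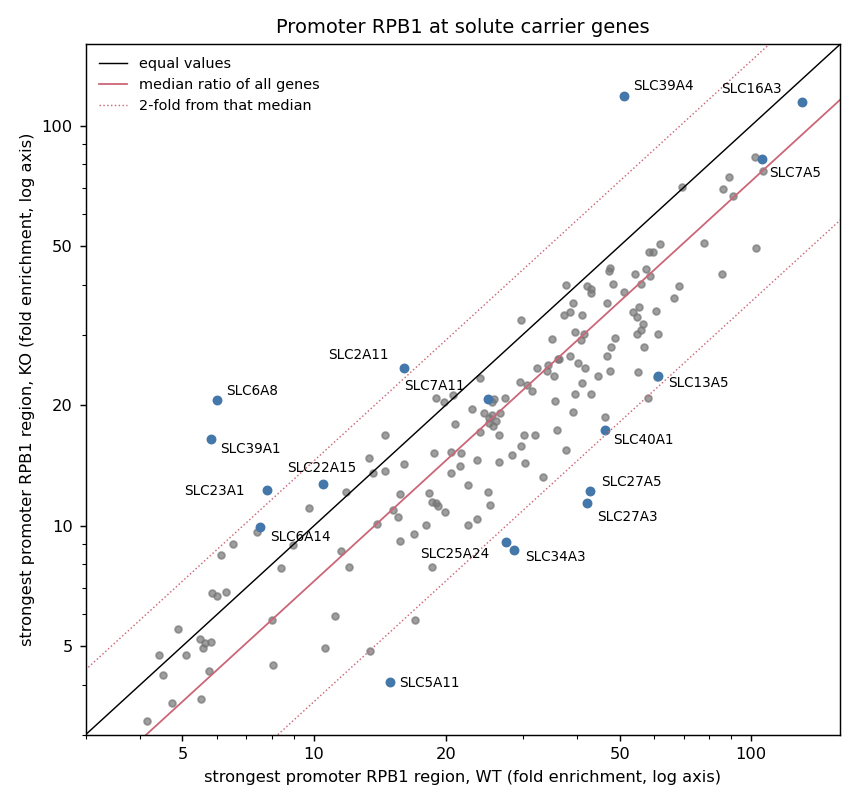
Strongest promoter RPB1 fold enrichment of each of the 174 solute carrier genes measured in both genotypes, WT on the horizontal and KO on the vertical axis, both logarithmic, with regions counted by name. Most points lie below the line of equal values and around the median ratio of all genes, while SLC39A4 (51.1 and 118.8) lies above the dotted 2-fold line and SLC27A3 and SLC5A11 below it.

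Promoter RPB1 was present in WT alone for 17 members (7.26%, against 5.96% of all genes) and in KO alone for 6 (2.56% against 3.51%). The WT-only members with the highest levels were SLC25A21, SLC19A3, SLC2A2, SLC6A4 and SLC1A7, all named above, and the others were SLC25A47, SLC30A3, SLC39A9, SLC20A2, SLC12A5, SLC4A3, SLC45A2, SLC7A10, SLC22A9, SLC1A2, SLC11A1 and the antisense RNA SLCO4A1-AS1, at 3.43 to 6.51. By position 14 members had it in WT alone (6.01%, against 4.08% of all genes), 13 of them the same genes. The 4 that did not hold, SLC25A21, SLC39A9, SLC12A5 and SLC20A2, each had a KO region at another of their starts. The KO-only members were SLC2A3, SLC37A1, SLC20A1, SLC52A2, SLC16A1 and SLC25A5, and by position SLC2A3 alone (0.43%, against 1.19% of all genes). At the others a WT region was present: SLC37A1, a phosphate-linked sugar phosphate exchanger, had 3.49 in WT and 6.34 in KO, SLC20A1 62.4 and 43.7, SLC52A2 62.1 and 21.9, and SLC25A5 47.6 and 31.2.

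Body pSer2 was shorter in KO for 87 of the 112 members with it in both genotypes (77.7%, against 68.9% of all genes). The median log2 ratio was −0.42 (quartiles −1.09 and −0.06), against −0.32 over 7453 genes. The mean fold enrichment of the body regions did not move in this way, with a median log2 ratio of 0.00 over members and 0.01 over all genes. Relative to the median of all genes, 10 members were more than 2-fold longer in KO, against 10.3% of all genes, and 25 (22.3% of the 112) more than 2-fold shorter, against 17.0%. Of the longer ones SLC22A15, SLC7A1 and SLC7A11 were named above as holding by position, and SLC13A4, a sulfate transporter, went from 212 to 749 bp by name and from 0 to 749 bp by position.

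Body pSer2 was present in WT alone for 22 members (9.40%, against 11.9% of all genes) and in KO alone for 16 (6.84% against 4.14%). By position the counts were 21 (9.01%, against 9.52% of all genes) and 8 (3.43% against 2.22%), of which 15 and 6 were the same genes. Besides SLC43A2, SLC2A2 and SLCO2B1, the longest in WT alone were SLC17A5, the lysosomal sialic acid exporter (1080 bp on both readouts), and SLC25A30 (791 bp by name, but 3798 and 2206 bp by position). The longest in KO alone after SLC6A14 included SLC16A11 (1119 bp), SLC25A39 (862 bp) and SLC25A17 (427 bp). By position SLC25A39 was covered in both genotypes (1348 and 1098 bp) and SLC25A17 in neither.

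For 18 of the 234 members neither promoter RPB1 nor body pSer2 was listed in either genotype by name, among them SLC17A1, SLC17A3 and SLC46A3, which had neither by position as well, and SLC22A5, the carnitine transporter, whose promoter RPB1 by position was 33.7 in WT and 27.4 in KO. RPB1 in the body was found for 109 members in WT and 100 in KO (46.6% and 42.7%, against 39.1% and 35.5% of all genes), and pSer2 at the promoter for 129 and 126 (55.1% and 53.8%, against 55.1% and 48.8%). Of the regions assigned to members, 49.3% of WT pSer2 and 48.9% of KO pSer2 regions lay in introns, against 44.5% and 43.2% of all, and 42.5% of WT and 41.6% of KO RPB1 regions lay at promoters, against 44.6% and 47.4%. The longest body pSer2 in WT by name, after SLC25A51 and SLC2A9, was that of SLC22A23, an orphan organic ion transporter (31973 bp, and 20715 bp in KO), SLC39A14, SLC6A11, SLC7A2, SLC43A1, a large neutral amino acid transporter (23399 and 20390 bp), SLC7A5, SLC1A4 (19375 and 20302 bp) and SLC7A11.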

How the data were processed

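ChIP-seq libraries of HepG2 cells were compared as lists of regions in hg38. Per the labels, the authors trimmed reads with Trimmomatic, aligned them with BWA and called peaks with MACS2 per library, with inputs sequenced from each genotype. Versions and settings were not given in the sources used here. The deposited lists give each region a fold enrichment at its summit (a ratio to the local background) and a −log10 p-value and −log10 q-value, together with a class and the gene of the nearest start. All promoter regions lay within 1000 bp of that start. Read depth per library is unknown from these files, so no interval for counting error could be given, and a gene without a region is a gene below the caller's threshold in that library. A deposited table of differential windows holds the authors' own comparisons and was not used.

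Genes were selected by symbol. For each gene and list the strongest promoter fold enrichment and the summed body length were taken with Python 3.11 and pandas, and log2 ratios were read relative to the median of all genes, with 2-fold as the limit for a single gene. The second readout, by position, counted a region within 1 kb of any annotated transcript start as promoter and clipped body regions to the span from 1 kb after the outermost start to the gene's end (GENCODE release 44). The functions were tested on simulated regions. With 1 library per group no test was made, and counts and medians stand beside those of all genes. The alternatives were a −log10 q of at least 5, other definitions of promoter and body, lists of equal size, overlap of at least 1 bp with the other list, leaving out noncoding symbols and leaving out chromosome 1. The readout by position and the limit to regions over the start were added after seeing the data, as was the ATAAA search. Members and role lists were chosen with earlier results of these data known. Genes named were the 3 strongest promoters of each role list, members found in 1 genotype only, and those with the largest levels or changes (5 or 10 per measure). SLC7A1, SLC3A2, SLC37A4, SLC38A3, SLC25A13, SLC22A5, SLC17A1, SLC17A3, SLC46A3, SLC66A1 and SLC12A2 were added after their values were seen. Promoter sequences came from RefSeq (GRCh38.p14). A few genes that the rule would name are not reported here.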

Additional observations from a re-analysis of the deposited data

How the results depend on the processing

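Of the alternative values for the summary counts and medians, 95 stayed within 1.5 times the count or within 0.1 of the median log2 ratio, and 9 did not. Promoter RPB1 in KO only, 6 members as reported, was 3 with a −log10 q of at least 5 and 1 by both readouts by position (3 kb upstream to the start, or within 1 kb of any start). Body pSer2 in KO only, 16 as reported, was 9 with that q limit and 8 by both readouts by position. Body pSer2 in WT only, 22 as reported, was 38 when genes were counted whose WT regions no KO region overlapped. The median log2 ratio of body length, −0.42, was −0.30 with the q limit and −0.20 with lists of equal size. The limit of promoter regions to 1 kb left every value as it was, since all lay within it. Of the alternative values for single genes 98 kept their direction and side of the 2-fold limit and 6 turned direction, all by position: SLC6A8 at the promoter (2.24 to −0.17 by either definition), SLC35A1 (−2.02 to 0.056) and SLC2A6 (1.89 to −0.54) in the body. A further 15 crossed the 2-fold limit. The causes of these shifts other than the assignment of regions to genes were not tested. No paired analysis was possible because each antibody and genotype had 1 library. Without replicates, a region absent from 1 list cannot be told apart from a region just under the caller's threshold.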

Other observations

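Several members had promoter and body readouts that moved in opposite directions between WT and KO by position. SLC25A13 had lower promoter RPB1 in KO (24.3 against 47.4) and longer body pSer2 (7886 against 5078 bp). SLC39A4 and SLC23A1 had higher promoter RPB1 in KO (118.8 against 51.1, and 12.3 against 7.80) and shorter body pSer2 (1079 against 1816 bp, and 7774 against 10413 bp). For SLC23A1 the promoter values of WT and KO came from regions at different places. SLC44A4, a choline and thiamine pyrophosphate transporter, had a KO promoter region of 51.6 by position against 11.9 in WT, with 4 bp of body pSer2 against 514 bp, while the values by name were 12.1 and 11.9. The antisense RNA SLCO4A1-AS1, which starts near SLCO4A1, was covered by pSer2 regions over 83.5% of its body in WT and 7.69% in KO, and ChIP does not tell its strand from that of an overlapping gene. SLC5A10, which no list named, had 21247 bp of body pSer2 in WT and 18378 bp in KO by position, under the names of other genes.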
